A study of Mus musculus with 24 samples.

Results

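The Lin-CD29hiCD24+ population of normal mouse mammary glands was set against the whole Lin- fraction of the same glands in 6 of the 24 arrays of the series, chosen by their sample titles, with 3 arrays per population. Both populations came from C57BL6/J Apc+/+ mice. Glands were pooled, 3 pools with the letters F, G and H were isolated independently, and from each pool 10000 cells per population were sorted for 1 array; the title of the CD29hiCD24+ array of pool H carries no letter, and its pool was taken by elimination. Lin- cells are the cells left after cells with lineage markers were set aside, and CD29 (integrin beta 1) and CD24 are surface proteins used to gate them further. Cells of the CD29hiCD24+ gate are themselves a share of the Lin- fraction, so the comparison is of a gate with its parent population. Arrays used beside it are the 3 arrays of the intermediate Lin-CD29+CD24+ gate from the same pools, and 5 CD29hiCD24+ and 5 Lin- arrays of mammary adenocarcinomas A to E from C57BL6/J Apc+/1572T mice. The labels used here give neither the age of the mice nor the antibodies behind Lin-. The study states as an aim the comparison of stem cell gates with more differentiated cells.

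The mammary epithelium is a bilayer. Luminal cells line the duct, carry the simple epithelial keratins and the hormone receptors, and include the cells that make milk. Basal or myoepithelial cells lie outside them on the basement membrane, carry keratins 5 and 14, p63 and hemidesmosomes, and contract through smooth muscle proteins when oxytocin arrives at milk let-down. The CD29hiCD24+ gate is known for basal cells and for cells that rebuild a gland after transplantation, and Wnt signalling is known as a regulator of that activity.

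Of 13485 genes tested, 5420 (40.2%) were called, meaning a Benjamini-Hochberg adjusted p under 0.05 in a limma fit across all genes and arrays. In CD29hiCD24+ cells 2294 genes (17.0%) were higher and 3126 (23.2%) were lower, and 3887 (28.8%) were called with a difference of at least 2-fold. The 3 arrays of one population did not overlap with the 3 of the other for 48.9% of genes. The median log2 difference of all genes was -0.016. Signal correlated with r of 0.964 to 0.983 among CD29hiCD24+ arrays and 0.969 to 0.984 among Lin- arrays, against 0.856 to 0.934 between the populations. Among Lin- arrays that of pool G correlated least with the others (0.969 with F and 0.975 with H, against 0.984 between F and H). By the mean of a gene list, 1 array of each population stood apart. The CD29hiCD24+ array of pool F had a mean of 8.11 over 14 leukocyte genes, against 3.37 in each of the other 2 arrays, and the Lin- array of pool F had a mean of 8.57 over 12 basal genes, against 10.39 and 10.40 in pools G and H. Without the CD29hiCD24+ array of pool F 4485 genes were called, of which 4358 were among the 5420 with the same sign. Without both arrays of pool F 3573 genes were called, 3497 of them with the same sign as before. Control probe sets for actin gave an excess of 3' over 5' signal, which grows as RNA shortens, of 2.89, 2.49 and 2.20 in CD29hiCD24+ arrays and 1.98, 2.86 and 1.54 in Lin- arrays (pools F, G and H, the order of all array values), and the populations overlapped.

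The labels were checked against the gate's own genes and against defining markers. Itgb1, which encodes CD29, had log2 signals of 9.83, 10.42 and 10.84 in CD29hiCD24+ arrays, against 9.48, 8.18 and 9.89 in Lin- arrays. Cd24a had 14.29, 14.42 and 14.39 in CD29hiCD24+ arrays, against 15.42, 14.99 and 15.18 in Lin- arrays. Itgb1 was thus higher by 1.18 ± 0.38 (log2 difference ± standard error, as for all values after ± below; adjusted p = 0.0170), though its arrays overlapped by 1 and the call was lost without the Lin- array of pool G (0.68, adjusted p = 0.143) or the CD29hiCD24+ array of pool H (0.94, adjusted p = 0.0867). Cd24a was lower, at -0.83 ± 0.19 (adjusted p = 0.00158), with no overlap. Itgb1 was also not called with only the compared groups fitted (adjusted p = 0.111). The gate was drawn on the proteins of these 2 genes, which are therefore given as a check of it. Itgb1 went the way of the CD29hi label, while Cd24a, though strong in every array, was lower in the gate than in Lin- cells. Krt14, a keratin of basal cells, lay at 14.35, 14.41 and 14.28 in CD29hiCD24+ arrays and at 9.40, 12.52 and 12.19 in Lin- arrays, so the gate was strong for this basal marker.

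By rule, 15 genes were named at each end of the ranked log2 differences, from those called with no overlap of arrays. Il17b, a cytokine of the interleukin 17 family, came first among the higher ones, with 10.78, 9.88 and 10.13 in CD29hiCD24+ arrays, against 2.55, 6.52 and 7.05 in Lin- arrays. Its difference was 4.89 ± 0.66 (adjusted p = 7.47e-06). Tenm3, a teneurin of the cell surface, followed at 4.86 ± 0.93, then 6330403K07Rik at 4.82 ± 0.35. Kcnq5, a voltage-gated potassium channel, was higher by 4.74 ± 0.59 and Nebl, an actin-binding protein of muscle, by 4.73 ± 0.51. Their other probe sets differed less, by 2.43 and 1.01 for Kcnq5 and by 0.74 and 0.47 for Nebl. Gfra1, a receptor for the neurotrophic factor GDNF, was higher by 4.72 ± 0.85. Some of the 15 belong to insulin-like growth factor or Wnt receptor biology. Igf2, a growth factor, had 8.67, 6.16 and 7.19 in CD29hiCD24+ arrays and 2.63, 2.72 and 2.64 in Lin- arrays, a difference of 4.68 ± 0.37. Pappa, a protease that frees insulin-like growth factors from their binding proteins, was higher by 4.52 ± 0.74, and Ror1, a receptor tyrosine kinase that binds Wnt5a, by 4.46 ± 0.58. The other genes were Pla2g7 (4.58 ± 0.57), which breaks down platelet-activating factor, the chemerin receptor gene Cmklr1 (4.57 ± 0.20), Them5 (4.53 ± 0.62), Tril (4.45 ± 0.44), the fibulin gene Fbln7 (4.45 ± 0.22) and Gprin3 (4.44 ± 0.14). The other Gprin3 probe set differed by 0.41, and those of Pappa by 3.55 and 0.40. In Lin- arrays the means of Igf2 and Tril, like those of Lmod1, Ryr3, Gucy1a1 and Hey1 among the list members, lay at or under 2.83, the low band in which the lowest 40% of all values lie and differences are compressed. Single Lin- arrays of Il17b, Tenm3, Kcnq5, Fbln7 and Gprin3 lay there too, so the sizes and ranks of these genes are uncertain. Without the Lin- array of pool F the difference was 3.48 for Il17b, 3.51 for Kcnq5 and 3.24 for Pappa, each with its call kept.

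The lowest difference belonged to Lum, which encodes lumican, a collagen-binding proteoglycan of fibroblasts. Lum had 2.59, 2.47 and 3.86 in CD29hiCD24+ arrays, against 10.73, 8.21 and 10.12 in Lin- arrays, a difference of -6.71 ± 1.33 (adjusted p = 0.000415). Dpt, which encodes the matrix protein dermatopontin, also belongs to fibroblasts and was lower by -5.28 ± 1.43, with 6.81, 2.57 and 7.09 in CD29hiCD24+ arrays, against 12.35, 9.39 and 10.56 in Lin- arrays. The other 13 genes were strong in Lin- cells and in the intermediate CD29+CD24+ cells, with means no lower than 8.72 in Lin- arrays (Upk3a) and 9.01 in CD29+CD24+ arrays (Tesc). Tesc, a calcium-binding protein gene, lay at 2.82, 4.08 and 1.95 in CD29hiCD24+ arrays and at 9.29, 8.89 and 9.26 in Lin- arrays (-6.19 ± 1.22). Rasgrf1, an exchange factor for Ras, differed by -5.92 ± 0.93, Ccdc162 by -5.70 ± 0.51, the fibrinogen chain gene Fgb by -5.52 ± 1.30 and Aoc1, a diamine oxidase, by -5.48 ± 0.96. Piezo2, a mechanically gated channel, differed by -5.39 ± 0.82, Ttc6 by -5.35 ± 1.27, Itih2 by -5.32 ± 0.85, Krt4, a keratin of stratified mucosa, by -5.31 ± 0.93 and the synapsin gene Syn2 by -5.28 ± 0.66. Some of the lowest genes were less stable. Dmbt1, a mucosal glycoprotein, had 2.97, 10.65 and 10.10 in CD29hiCD24+ arrays, against 14.05, 13.66 and 13.52 in Lin- arrays (-5.84 ± 1.98, adjusted p = 0.0227), and was not called without the CD29hiCD24+ array (-3.37, adjusted p = 0.191) or the Lin- array (-5.68, adjusted p = 0.0602) of pool F. Olfm4, a secreted glycoprotein of mucosae (-5.70 ± 1.66), and the uroplakin gene Upk3a (-5.28 ± 1.46) lost their calls only when both arrays of pool F were left out (adjusted p = 0.0826 and 0.0578). No CD29hiCD24+ mean of the 15 lowest genes lay in the low band. Single CD29hiCD24+ arrays did for Lum, Tesc, Ccdc162, Upk3a, Rasgrf1, Olfm4, Piezo2, Itih2, Syn2 and Dpt, so the sizes and ranks of these genes are uncertain. Adjusted p of the 30 genes ran from 3.20e-15 (Gprin3) to 0.0227 (Dmbt1).

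**Figure D1:**
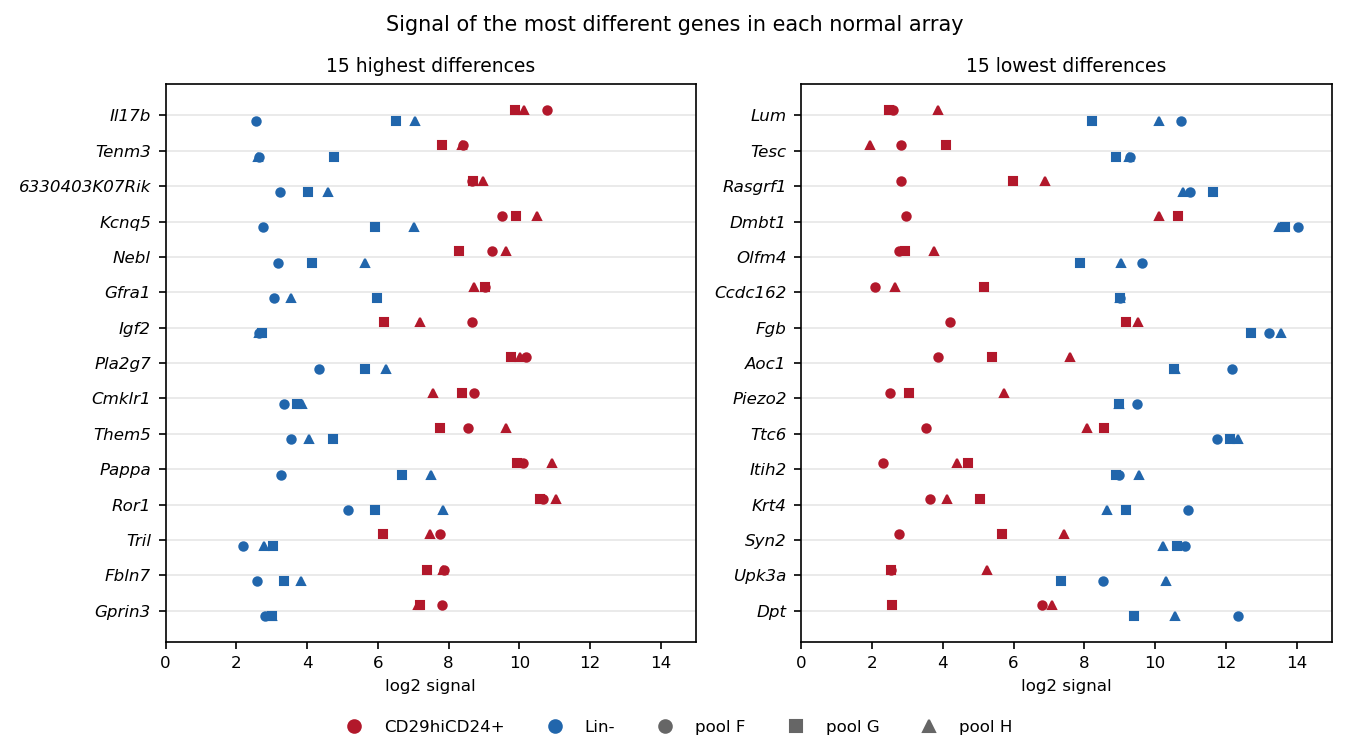
Log2 signal (horizontal axes) of the 15 highest and 15 lowest genes in each of the 3 CD29hiCD24+ arrays (red) and 3 Lin- arrays (blue), with 1 symbol per pool. Red and blue do not overlap for any of the 30 genes, as the naming rule requires; Dmbt1, Fgb and Ttc6 lie lowest in the CD29hiCD24+ array of pool F.

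Basal genes were higher in CD29hiCD24+ cells: 10 of 12 measured members were called higher and 0 lower (1 lower with pool or tumour as a block), with a median of 2.94. The list holds Il17b, the highest gene above. All lists were chosen with earlier results of these data known, so their counts describe the data and are no independent test. Each count is to be read beside the shares of all genes, 17.0% higher and 23.2% lower. In sorted pools, fewer cells of a type and less RNA per cell cannot be told apart, so a difference can be either. Trp63, which encodes p63, the transcription factor that maintains basal layers, had 12.02, 12.02 and 11.94 in CD29hiCD24+ arrays, against 6.36, 8.10 and 8.29 in Lin- arrays. The gate arrays lay close together while the Lin- arrays were spread, and the difference was 4.41 ± 0.37 (adjusted p = 1.52e-08). Krt5, the partner keratin of Krt14, had 12.56, 12.83 and 13.21 in CD29hiCD24+ arrays and 7.30, 10.65 and 10.26 in Lin- arrays (3.46 ± 0.51). Krt14 itself was higher by 2.98 ± 0.46 (adjusted p = 3.02e-05), Krt17 by 3.27 ± 0.59, the teneurin gene Tenm2 by 3.92 ± 0.66 and the matrix protein gene Sparc by 2.35 ± 0.48. Leaving out the Lin- array of pool F, lowest for each of Krt14, Krt5 and Trp63, gave 1.997 for Krt14 (adjusted p = 1.12e-08) and 3.80 for Trp63. Without it 8 basal members were called. Krt15, a keratin of basal cells (2.69 ± 0.97, adjusted p = 0.0320), lost its call when any of 4 arrays was left out, with adjusted p up to 0.124 without the Lin- array of pool F.

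**Figure D2:**
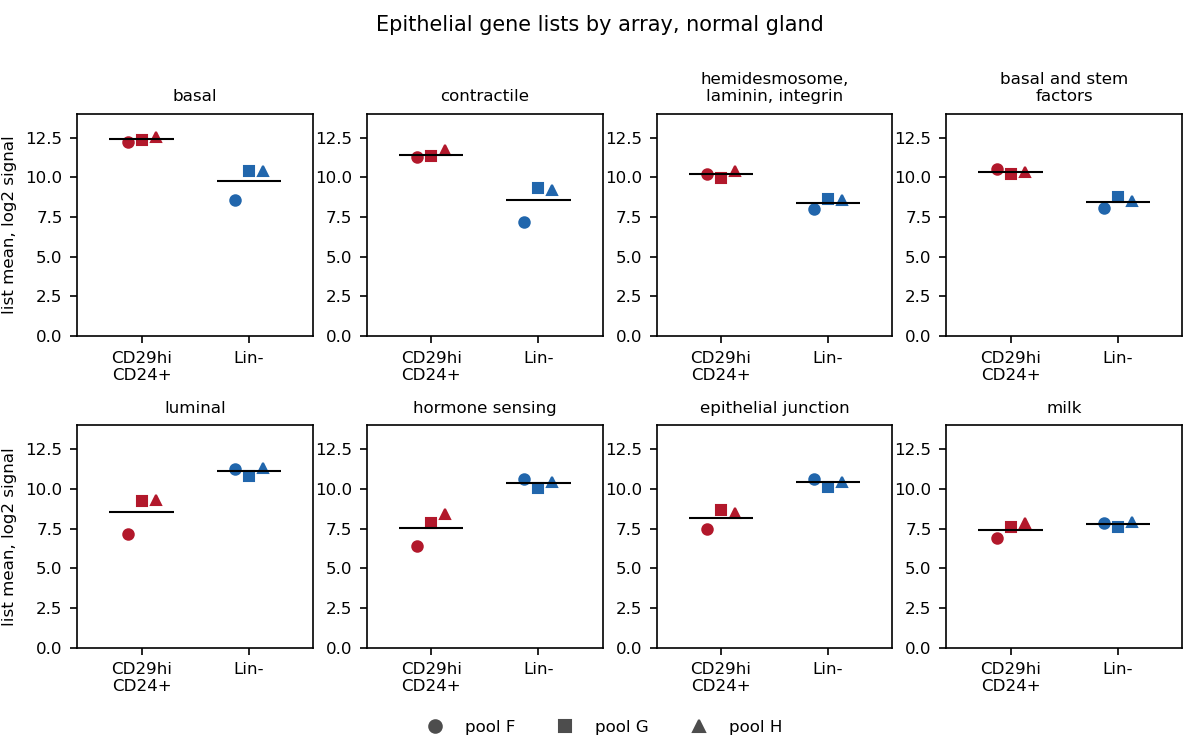
Mean log2 signal of 8 epithelial gene lists in each array, CD29hiCD24+ (red, left) and Lin- (blue, right), with a symbol per pool and a line at the mean of 3 arrays. Basal, contractile, adhesion and basal factor lists lie above Lin- in every pool, luminal, hormone-sensing and junction lists lie below, and the milk list overlaps.

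Contractile genes of smooth muscle moved with the basal genes, as 13 of 17 measured members were called higher and 0 lower, with a median of 3.08. Actg2, a smooth muscle actin, had 10.66, 10.59 and 11.39 in CD29hiCD24+ arrays, against 3.80, 8.47 and 8.37 in Lin- arrays (3.999 ± 0.77, adjusted p = 0.000298). Cnn1, the actin-binding protein calponin, was higher by 3.81 ± 0.86, Pgm5 by 3.88 ± 0.43, the actin nucleator Lmod1 by 3.73 ± 0.22, Pdlim3 by 3.04 ± 0.72 and the tropomyosin gene Tpm2 by 2.29 ± 0.47. Myh11, the smooth muscle myosin heavy chain (3.47 ± 0.95), and Myl9, a myosin light chain (3.44 ± 1.07, adjusted p = 0.0138), were called with all arrays, but not without the Lin- array of pool F (2.53, adjusted p = 0.0518, and 2.39, adjusted p = 0.105). Acta2, alpha smooth muscle actin, lay at 15.15, 15.08 and 15.08 in CD29hiCD24+ arrays and at 12.41, 14.42 and 14.11 in Lin- arrays. The groups did not overlap, yet its difference of 1.45 ± 0.93 was not called (adjusted p = 0.238), nor was that of Tagln (3.08 ± 1.27, adjusted p = 0.0599, or 0.0202 with pool or tumour as a block). This probe set lay close to the top of the scale in the gate (highest signal of any probe set there, 15.90), and the other Acta2 probe set, at means of 7.18 in CD29hiCD24+ and 3.01 in Lin- arrays, differed by 4.18. The mean of both gave a called difference (2.81, adjusted p = 9.45e-05). The list of contraction receptors and calcium handling genes was split: of 8 measured, 5 were higher and 2, neither of them a receptor gene, lower. Oxtr, the oxytocin receptor, had 11.48, 10.68 and 11.89 in CD29hiCD24+ arrays, against 5.05, 8.63 and 8.13 in Lin- arrays (4.08 ± 0.80, adjusted p = 0.000388). Prkg1, the kinase that relaxes smooth muscle in response to cyclic GMP, was higher by 3.63 ± 0.68 and the calcium release channel gene Ryr3 by 3.01 ± 0.20. Ednrb, an endothelin receptor, was higher by 2.72 ± 0.82, which was not called without the CD29hiCD24+ array of pool F (1.61, adjusted p = 0.108). The other member called higher was Gucy1a1, a subunit of the nitric oxide receptor (2.37 ± 0.41). The lower ones were Orai1, a calcium channel of the plasma membrane (-1.29 ± 0.38), and Pde5a, which breaks down cyclic GMP (-0.84 ± 0.26), the second not called without the CD29hiCD24+ array of pool F or the Lin- array of pool G (adjusted p = 0.0507 and 0.0654).

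Serum response factor acts on many contractile genes through the CArG box, a motif of 10 bases with a core of A and T. The windows of 3 listed genes from 250 bases before to 50 after the start (RefSeq sequences, GRCm38.p6) are shown because they hold this motif beside a contractile gene with a large or a small difference. Capitals mark matches, exact in the core or with 1 core base changed; the motif reads alike on both strands.
Myl9, chr2:156775214-156775513, plus strand: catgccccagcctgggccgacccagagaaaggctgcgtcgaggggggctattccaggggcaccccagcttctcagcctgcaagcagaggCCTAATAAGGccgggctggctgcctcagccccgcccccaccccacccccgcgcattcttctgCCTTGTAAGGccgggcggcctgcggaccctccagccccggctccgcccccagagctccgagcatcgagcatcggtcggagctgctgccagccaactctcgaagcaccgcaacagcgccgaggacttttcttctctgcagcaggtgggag
Pdlim3, chr8:45885237-45885536, plus strand: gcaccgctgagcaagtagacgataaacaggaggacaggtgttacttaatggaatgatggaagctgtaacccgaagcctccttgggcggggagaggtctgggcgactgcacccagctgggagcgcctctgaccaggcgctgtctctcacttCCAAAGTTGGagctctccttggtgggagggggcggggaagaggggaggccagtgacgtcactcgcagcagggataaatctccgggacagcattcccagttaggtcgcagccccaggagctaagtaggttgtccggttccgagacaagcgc
Acta2, chr19:34255324-34255623, minus strand: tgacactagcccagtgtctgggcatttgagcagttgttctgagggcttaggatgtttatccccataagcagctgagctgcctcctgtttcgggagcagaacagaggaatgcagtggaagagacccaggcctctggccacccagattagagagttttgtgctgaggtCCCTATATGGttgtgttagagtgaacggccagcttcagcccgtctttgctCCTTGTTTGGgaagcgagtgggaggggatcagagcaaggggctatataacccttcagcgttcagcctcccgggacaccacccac
The exact match of Myl9 starts 161 bases before the start, and its other match starts 99 bases before it. The matches of Acta2 start 84 and 34 bases before the start and that of Pdlim3 starts 100 bases before it, each with 1 core base changed. Of 20 listed contractile genes 15 had a window, and 4 of them held a match of either kind, against 9.98% of all 32851 windows; an exact match stood in 1.63% of all windows. The 4 genes are these 3 and Srf, which encodes serum response factor, and Srf itself was level at 11.29, 11.52 and 11.35 in CD29hiCD24+ arrays and 11.60, 11.54 and 11.72 in Lin- arrays (-0.23 ± 0.23, adjusted p = 0.476).

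Genes that anchor basal cells to the basement membrane were mostly higher, with 14 of 19 measured members of the hemidesmosome, laminin and integrin list called higher, 2 lower and a median of 1.88. Col17a1, the transmembrane collagen of hemidesmosomes, had 12.80, 12.74 and 12.90 in CD29hiCD24+ arrays, against 6.996, 10.22 and 10.02 in Lin- arrays (3.74 ± 0.49, adjusted p = 5.63e-06). The laminin chains of hemidesmosomes, Lama3 (3.35 ± 0.55) and Lamb3 (2.89 ± 0.34), the other laminin chain gene Lama1 (3.88 ± 0.95) and the basement membrane collagen Col4a1 (2.79 ± 0.64) were higher too. The collagen and tenascin receptor subunits Itga1 (3.75 ± 0.41) and Itga9 (3.80 ± 0.68) differed far more than the subunits of the laminin receptor in hemidesmosomes. Itga6 was at 13.02, 13.13 and 13.32 in CD29hiCD24+ arrays and 12.64, 12.84 and 12.73 in Lin- arrays, a difference of 0.42 ± 0.13 (adjusted p = 0.0143) that was not called without the Lin- array of pool F or the CD29hiCD24+ array of pool H (adjusted p = 0.0617 and 0.0767). Itgb4 was not called (0.54 ± 0.37). Plec, the plectin that ties hemidesmosomes to keratins, was lower, with 10.67, 10.99 and 10.95 in CD29hiCD24+ arrays, against 12.27, 12.31 and 11.78 in Lin- arrays (-1.25 ± 0.22, adjusted p = 0.000139). The laminin chain gene Lama5 was lower as well (-0.90 ± 0.32), a call lost when any of 3 arrays was left out (adjusted p up to 0.154 without the CD29hiCD24+ array of pool F) and with the mean of its probe sets (-0.56, adjusted p = 0.0656), 1 of which had a difference of 0.038.

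Factors associated with basal identity and mammary stem cells had 12 of 18 measured members called higher and 0 lower, with a median of 2.28. Lgr5, an R-spondin receptor that marks stem cells in several epithelia, had 9.88, 9.81 and 9.87 in CD29hiCD24+ arrays, against 3.87, 7.17 and 6.32 in Lin- arrays (4.06 ± 0.61, adjusted p = 2.48e-05). Id4, an inhibitor of helix-loop-helix factors, lay at 13.23, 13.19 and 13.22 in CD29hiCD24+ arrays and at 8.38, 10.21 and 10.40 in Lin- arrays (3.55 ± 0.56). Snai2, the transcription factor Slug, was higher by 2.56 ± 0.44, Bcl11b by 3.11 ± 0.43, Mef2c by 3.27 ± 0.61, Tcf7l1 by 2.12 ± 0.24 and the hyaluronan receptor gene Cd44 by 1.28 ± 0.21. Sox10, a neural crest and mammary factor, was higher by 1.47 ± 0.42 and missed the threshold without the Lin- array of pool H (1.18, adjusted p = 0.0506). Some genes used as stem cell markers were not called. Procr, the protein C receptor, had 13.50, 12.38 and 11.55 in CD29hiCD24+ arrays, against 12.50, 11.59 and 10.62 in Lin- arrays (0.90 ± 0.68, adjusted p = 0.327). Within each pool Procr was higher in the gate, the arrays of different pools overlapped, and the same difference was called with the pool as a block (adjusted p = 0.0238). Tspan8 (0.61 ± 0.66) and the adhesion receptor gene Vcam1 (2.91 ± 1.20, adjusted p = 0.0586, or 0.0129 with the block) were not called either, and neither was Twist1 (-0.43 ± 0.25), which lay in or near the low band in all but the Lin- array of pool F.

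Luminal genes were lower in CD29hiCD24+ cells, where 0 of 24 measured members were called higher and 16 lower, with a median of -2.74. The number depends on 1 array, since 10 were called lower without the CD29hiCD24+ array of pool F, which had the lowest luminal mean (7.14, against 9.23 and 9.31 in pools G and H). Cited1, a transcriptional coregulator of hormone-responsive luminal cells, had 3.01, 7.87 and 7.72 in CD29hiCD24+ arrays, against 10.53, 10.74 and 11.75 in Lin- arrays (-4.81 ± 1.07, adjusted p = 0.00123). The tight junction gene Cldn4 had 4.91, 10.46 and 10.06 in CD29hiCD24+ arrays and 13.66, 12.42 and 13.60 in Lin- arrays (-4.75 ± 1.08). The array of pool F is lowest for both, and the groups stay apart without it. Luminal transcription factors were among the lower genes, with Elf5, the alveolar regulator, at -3.99 ± 0.94, Foxa1 at -3.96 ± 0.85 and Ehf at -3.77 ± 0.64. Cldn3 (-4.09 ± 0.98) and Prom1 (-4.05 ± 0.76) were lower as well. Krt7 (-4.06 ± 1.29, adjusted p = 0.0158) and Rasef (-4.62 ± 1.26) were not called without that array (-2.83, adjusted p = 0.116, and -2.76, adjusted p = 0.0602). The abundant luminal keratins were not called in the fit to all groups. With only the compared groups fitted they were, at adjusted p = 0.0311 for Krt8 and 0.0190 for Krt18. Krt8 lay at 13.22, 14.22 and 14.19 in CD29hiCD24+ arrays and at 14.90, 14.94 and 14.83 in Lin- arrays (-1.01 ± 1.03, adjusted p = 0.5002), and Krt18 at 12.26, 14.004 and 13.73 in CD29hiCD24+ arrays and 15.26, 15.08 and 15.34 in Lin- arrays (-1.90 ± 0.95, adjusted p = 0.122, or 0.0162 with the block). Both stayed among the strong signals in the gate, although no array of one population reached the other.

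Hormone-sensing luminal genes had 7 of 12 measured members called lower and 0 higher, with a median of -3.67. Pgr, the progesterone receptor, had 9.23, 10.19 and 10.73 in CD29hiCD24+ arrays, against 13.62, 12.64 and 13.05 in Lin- arrays (-3.05 ± 0.65, adjusted p = 0.000821). Msx2 (-4.11 ± 0.57) and Tph1, which makes serotonin (-4.36 ± 1.08), were lower too, and the cytokine gene Cxcl15 (-5.07 ± 1.54, adjusted p = 0.0118) was not called without the CD29hiCD24+ array of pool F (-3.002, adjusted p = 0.114). Esr1, the estrogen receptor, lay at 8.25, 8.90 and 9.56 in CD29hiCD24+ arrays and at 12.40, 12.33 and 12.29 in Lin- arrays, and its difference of -3.44 ± 1.40 was not called (adjusted p = 0.0570, or 0.00151 with the block). Junction genes had 17 of 20 measured members called lower and 0 higher, with a median of -2.65. There were also 17 lower without the CD29hiCD24+ array of pool F, and 13 without both arrays of pool F. Cgn, the tight junction protein cingulin, had 3.51, 4.65 and 5.34 in CD29hiCD24+ arrays, against 9.26, 9.76 and 8.80 in Lin- arrays (-4.77 ± 0.66). Prss8, a membrane protease, was lower by -4.11 ± 0.45, the recycling GTPase gene Rab25 by -3.83 ± 0.48 and the tight junction gene Marveld3 by -3.68 ± 0.60. Small but called steps were seen for Cdh1, E-cadherin (-0.63 ± 0.16), and Epcam (-0.94 ± 0.25), both of which basal cells also carry. Neither was called without both arrays of pool F (adjusted p = 0.115 and 0.125), nor was Cdh1 with only the compared groups fitted (adjusted p = 0.0598). Milk genes had 1 of 18 called (3 with the block), Btn1a1 (-2.73 ± 0.87), 1 of whose probe sets showed no such difference (0.05) and which was not called without the CD29hiCD24+ array of pool F or the Lin- array of pool G (adjusted p = 0.127 and 0.0654).

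Wnt genes were arranged by role. The ligands were split, with 3 of 7 measured ligands higher and 3 lower. Wnt10a had 7.76, 8.17 and 8.002 in CD29hiCD24+ arrays, against 2.91, 6.19 and 4.88 in Lin- arrays (3.32 ± 0.51, adjusted p = 3.08e-05). Wnt4, the ligand that acts downstream of progesterone, ran the other way, with 5.93, 7.81 and 7.56 in CD29hiCD24+ arrays and 10.96, 10.86 and 11.16 in Lin- arrays (-3.90 ± 0.56, adjusted p = 1.55e-05). Wnt11 was higher by 1.59 ± 0.34, and Wnt7b (-3.46 ± 0.73) and Wnt5a (-2.21 ± 0.44) were lower. Secreted antagonists, which keep Wnt ligands from their receptors, had 4 of 8 measured members higher and 1 lower. Wif1, a Wnt-binding inhibitor, lay at 11.14, 11.22 and 11.66 in CD29hiCD24+ arrays and at 5.18, 8.47 and 7.74 in Lin- arrays (4.21 ± 0.48, adjusted p = 1.02e-06). Sostdc1 (4.01 ± 0.70), Dkk3 (3.71 ± 0.51) and Sfrp1 (2.84 ± 0.48) were higher with it, and Sfrp4 was lower, with 2.79, 2.79 and 2.82 in CD29hiCD24+ arrays, against 6.795, 3.56 and 3.83 in Lin- arrays (-1.93 ± 0.50). All 3 gate values of Sfrp4 lay in the low band, so the size is uncertain, and the call was lost with only the compared groups fitted (adjusted p = 0.122). Receptors and targets together had 13 of 16 measured members higher and 2 lower, with a median of 1.997. All 4 measured Frizzled receptor genes were called higher, by 2.32 to 2.79, with Fzd7 at the top of that range (10.79, 11.34 and 11.78 in CD29hiCD24+ arrays, against 7.98, 8.49 and 9.07 in Lin- arrays). Ror2, a receptor for noncanonical Wnt ligands, was lower by -2.63 ± 0.45, against the direction of its paralogue Ror1.

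Among 9 Wnt target genes 7 were higher and 1 lower. Axin2, the feedback inhibitor most used as a readout, was near the low band, with 4.88, 4.02 and 4.92 in CD29hiCD24+ arrays, against 2.84, 3.55 and 2.62 in Lin- arrays (1.602 ± 0.40, adjusted p = 0.00279). Nkd1 (2.49 ± 0.24) and Nkd2 (2.85 ± 0.66), which restrain Dishevelled, and Znrf3 (1.67 ± 0.37), which removes Frizzled from the membrane, were higher; 1 of 4 Nkd2 probe sets had a difference of -0.13 near the low band. The D-type cyclins ran in opposite directions. Ccnd2 had 10.38, 10.19 and 10.59 in CD29hiCD24+ arrays, against 6.30, 8.37 and 7.74 in Lin- arrays (2.92 ± 0.50), and Ccnd1 had 8.07, 8.99 and 8.99 in CD29hiCD24+ arrays, against 9.35, 10.24 and 9.94 in Lin- arrays (-1.16 ± 0.29, adjusted p = 0.00315). Myc was higher by 1.36 ± 0.49 (adjusted p = 0.0307), a call that was lost when any of 5 arrays was left out (adjusted p up to 0.167 without the Lin- array of pool G).

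**Figure D3:**
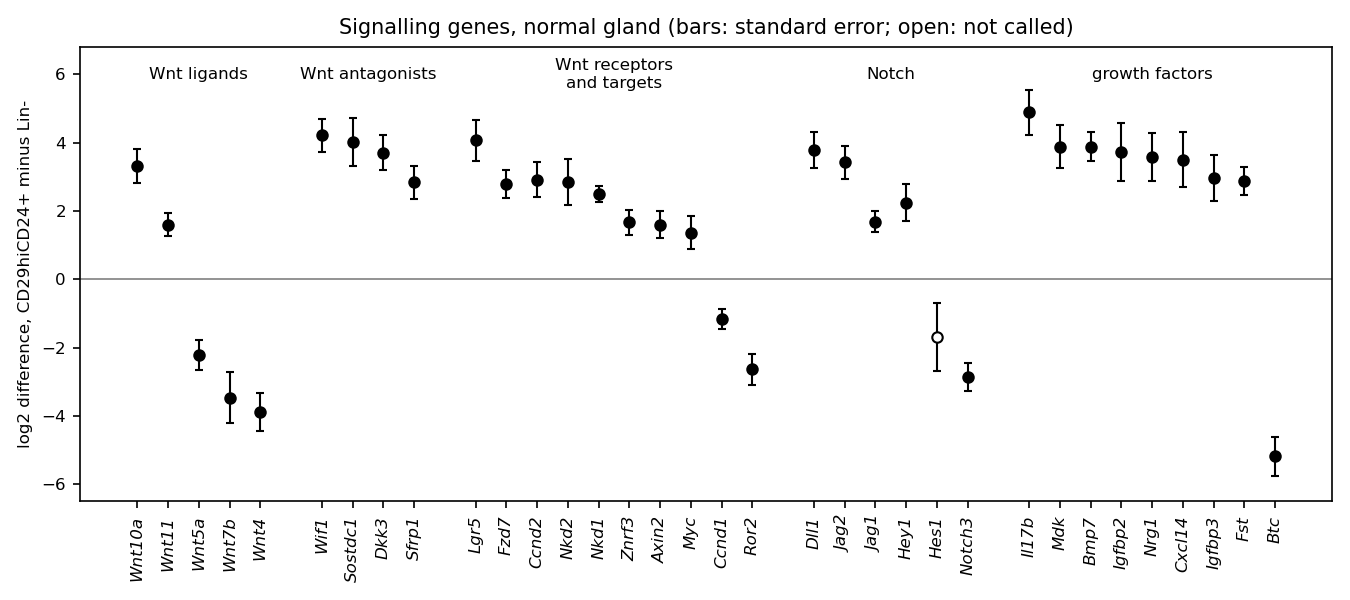
Log2 difference, CD29hiCD24+ minus Lin- in normal glands, of Wnt, Notch and growth factor genes, with standard errors of the fit; filled points were called and the open point (Hes1) was not. Wnt4, Wnt5a, Wnt7b, Ccnd1, Ror2, Notch3 and Btc lie below 0 beside higher members of the same families.

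Notch genes showed higher ligands beside few changes of receptors. Of 4 measured ligands 3 were higher. Dll1 had 11.96, 11.72 and 12.02 in CD29hiCD24+ arrays, against 6.59, 8.77 and 8.95 in Lin- arrays (3.79 ± 0.52, adjusted p = 9.999e-06), and Jag2 had 8.89, 8.09 and 8.32 in CD29hiCD24+ arrays, against 3.30, 6.03 and 5.69 in Lin- arrays (3.42 ± 0.49). Jag1 was higher by 1.69 ± 0.30. Of 4 receptors 1 was called, Notch3, with 5.57, 5.78 and 6.49 in CD29hiCD24+ arrays, against 8.55, 9.42 and 8.47 in Lin- arrays (-2.87 ± 0.41, adjusted p = 1.33e-05). Of 4 target genes 2 were higher and 0 lower: Hey1 was higher by 2.25 ± 0.53 and Hey2 by 0.77 ± 0.16, while Hes1 was not called (-1.70 ± 0.9997, adjusted p = 0.195, or 0.00120 with the block). In the whole Notch list 5 of 15 measured members were higher and 1 lower (2 lower with the block), against 17.0% higher and 23.2% lower of all genes.

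Growth factor and cytokine genes had 16 of 26 measured members higher and 1 lower (2 lower with the block), with a median of 1.66. Besides Il17b, the heparin-binding factor Mdk was higher, with 10.41, 10.32 and 10.44 in CD29hiCD24+ arrays, against 4.91, 7.07 and 7.55 in Lin- arrays (3.88 ± 0.62). Bmp7 was higher by 3.88 ± 0.42, the chemokine gene Cxcl14 by 3.50 ± 0.79 and Fst, an activin inhibitor, by 2.88 ± 0.41. The insulin-like growth factor binding protein genes Igfbp2 (3.72 ± 0.85) and Igfbp3 (2.96 ± 0.67) were higher. Genes of ERBB receptors and their ligands are given by value. Nrg1, the neuregulin that binds ERBB3, lay at 7.88, 8.44 and 7.67 in CD29hiCD24+ arrays and at 3.84, 5.46 and 3.98 in Lin- arrays (3.57 ± 0.71). Erbb3 lay at 8.05, 9.44 and 9.43 in CD29hiCD24+ arrays and at 12.55, 12.47 and 12.42 in Lin- arrays (-3.51 ± 0.30, adjusted p = 2.04e-08). Btc, the EGF receptor ligand betacellulin, had 2.75, 4.05 and 3.27 in CD29hiCD24+ arrays, against 9.52, 7.78 and 8.32 in Lin- arrays (-5.19 ± 0.56, adjusted p = 6.05e-07). Against Lin- cells the gate was thus higher for Nrg1 and lower for Erbb3 and Btc, though Erbb3 kept signals of 8.05 to 9.44 in the gate.

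Guidance and neurotrophic genes, which steer axons and also pattern ducts, had 10 of 16 measured members higher and 1 lower, with a median of 1.52. Epha4, an ephrin receptor, had 10.58, 9.999 and 10.38 in CD29hiCD24+ arrays, against 5.88, 7.49 and 6.48 in Lin- arrays (3.70 ± 0.36). The semaphorin gene Sema6a (2.99 ± 0.50) and the ephrin gene Efna5 (2.94 ± 0.25) were higher too. Slit2, a ligand of Robo receptors, was higher by 3.36 ± 1.19 (adjusted p = 0.0294), a call lost when any of 4 arrays was left out, with adjusted p up to 0.122 without the Lin- array of pool F. Without that array 7 members of the list were called higher. The lower member was the netrin gene Ntn1, with 6.42, 6.59 and 6.53 in CD29hiCD24+ arrays, against 8.68, 8.09 and 7.96 in Lin- arrays (-1.73 ± 0.57), not called without the Lin- or the CD29hiCD24+ array of pool F (adjusted p = 0.0785 and 0.0532). Of 16 measured mesenchymal transition genes 5 were higher and 0 lower (1 lower with the block), with a median of 0.28. The shares of all genes were 17.0% higher and 23.2% lower. N-cadherin, Cdh2, had 8.32, 7.43 and 7.81 in CD29hiCD24+ arrays, against 4.15, 4.57 and 3.99 in Lin- arrays (3.62 ± 0.47). Tgfb2 was higher by 1.42 ± 0.35 and P-cadherin, Cdh3, a cadherin of basal cells, by 1.39 ± 0.37. Cdh11 was higher by 2.60 ± 0.98 (adjusted p = 0.0391), a call lost when any of 4 arrays was left out (adjusted p up to 0.147 without the Lin- array of pool H). Vim, vimentin, was not called, at 14.25, 13.81 and 14.28 in CD29hiCD24+ arrays and 13.01, 12.90 and 12.58 in Lin- arrays (1.28 ± 0.68, adjusted p = 0.147, or 0.00427 with only the compared groups fitted).

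Markers of cells other than epithelium differed between the populations as well. Endothelial markers were higher in CD29hiCD24+ cells, with 9 of 16 measured members called higher and 0 lower and a median of 1.89. The list mean was 8.95, 6.30 and 6.95 in CD29hiCD24+ arrays and 5.39, 5.23 and 5.53 in Lin- arrays, so every gate array lay above every Lin- array. Cdh5, the cadherin of endothelial junctions, had 8.97, 6.29 and 6.48 in CD29hiCD24+ arrays, against 3.16, 2.79 and 4.43 in Lin- arrays (3.79 ± 0.75, adjusted p = 0.000435). Erg (3.47 ± 0.61), Cldn5 (3.45 ± 0.77), Emcn (2.86 ± 0.66) and the selectin gene Sele (2.504 ± 0.63) were called too, while Vwf (1.28 ± 1.34) and Selp (1.64 ± 1.18) were not. Without the CD29hiCD24+ array of pool F 6 members were called higher and the median was 1.05, with Esam (2.98 ± 0.84) and Plvap (2.43 ± 0.95) no longer called (adjusted p = 0.0648 and 0.260). Plvap also lost its call when any of 4 other arrays was left out. Without both arrays of pool F 4 members were called higher, and Cldn5 was not called (2.09, adjusted p = 0.0703). Pecam1 had no probe set above the filter and was not analysed here. The part of endothelial cells in other results of the gate was not tested.

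**Figure D4:**
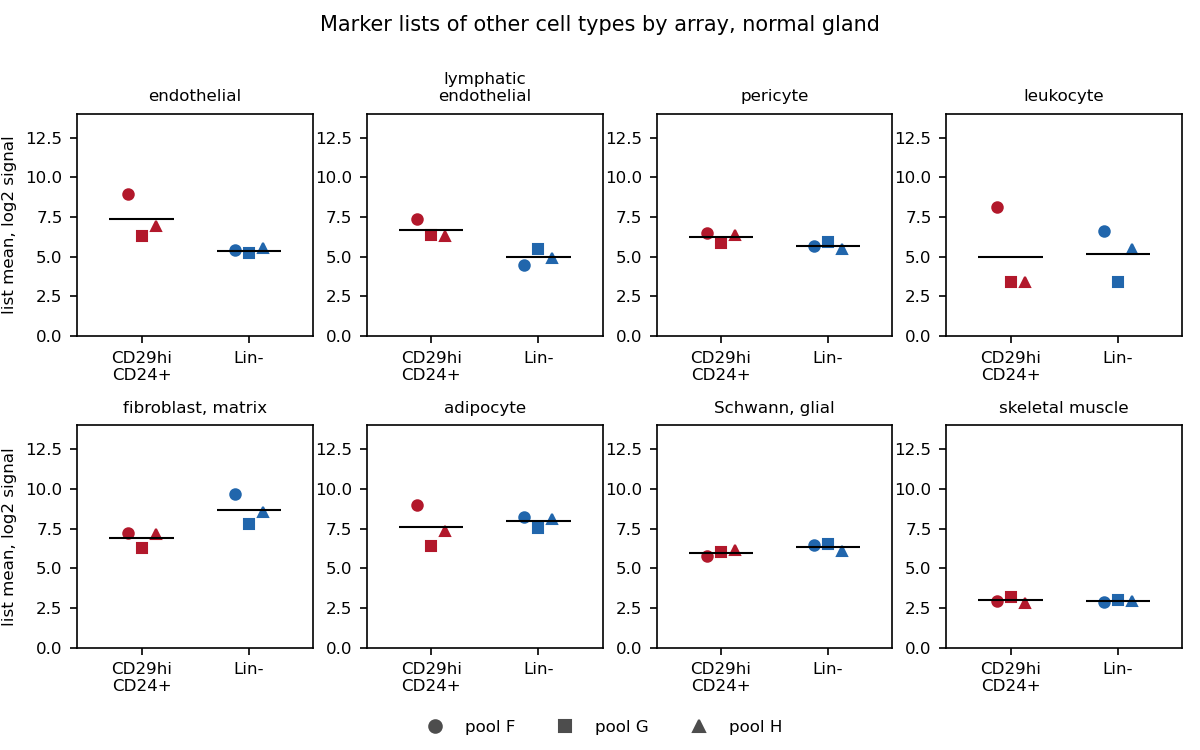
Mean log2 signal of marker lists of 8 other cell types in each array, CD29hiCD24+ (red, left) and Lin- (blue, right), with a symbol per pool and a line at the mean of 3 arrays. The CD29hiCD24+ array of pool F is the highest for endothelial, leukocyte and adipocyte lists, and fibroblast genes lie higher in each Lin- array than in any CD29hiCD24+ array.

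Leukocyte genes varied more within each population than between them. The list mean was 8.11, 3.37 and 3.37 in CD29hiCD24+ arrays and 6.60, 3.43 and 5.46 in Lin- arrays, and 1 of 14 measured members was called higher, 0 lower. Ptprc, the pan-leukocyte antigen CD45, had 8.69, 2.43 and 3.50 in CD29hiCD24+ arrays, against 7.78, 2.60 and 8.09 in Lin- arrays (-1.29 ± 1.45, adjusted p = 0.553). Lyz2, a lysozyme of myeloid cells, had 10.52, 2.51 and 2.65 in CD29hiCD24+ arrays, against 7.24, 2.68 and 4.73 in Lin- arrays (0.34 ± 1.66), and Laptm5 was likewise not called (-1.71 ± 1.62). Both pool F arrays were high and both pool G arrays were low for these genes. The called member was Cd68 (1.84 ± 0.66, adjusted p = 0.0307), whose arrays overlapped and which was not called without the CD29hiCD24+ array of pool F or the Lin- array of pool G (adjusted p = 0.255 and 0.202). Without that CD29hiCD24+ array 0 members were called higher and 3 lower, among them Laptm5 (-4.24, adjusted p = 0.0192).

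Fibroblast and matrix genes were higher in Lin- cells, with 1 of 22 measured members called higher (3 with the block) and 9 lower in CD29hiCD24+ cells and a median of -0.94. The list mean was 7.24, 6.24 and 7.14 in CD29hiCD24+ arrays and 9.69, 7.80 and 8.54 in Lin- arrays. The collagen I genes Col1a1 (3.29, 3.03 and 3.26 in CD29hiCD24+ arrays, against 7.82, 7.17 and 6.31 in Lin- arrays) and Col1a2 (7.33, 5.74 and 7.35 in CD29hiCD24+ arrays, against 12.68, 11.12 and 11.11 in Lin- arrays) were lower by -3.91 ± 0.90 and -4.83 ± 1.14. Col6a3 was lower by -4.61 ± 1.18. The receptor gene Pdgfra was not called, at 7.43, 6.67 and 7.03 in CD29hiCD24+ arrays and 9.35, 7.41 and 7.89 in Lin- arrays (-1.17 ± 0.70, adjusted p = 0.200). Postn, which encodes the matrix protein periostin, lay on the other side, at 14.77, 14.95 and 15.12 in CD29hiCD24+ arrays and 11.77, 13.08 and 13.16 in Lin- arrays, and was not called (2.27 ± 0.95, adjusted p = 0.0628, or 0.0256 with the block). In the intermediate CD29+CD24+ arrays Lum, Dpt, Col1a1 and Col1a2 averaged 2.504, 2.55, 3.03 and 2.66, so the Lin- fraction held the highest signal of the 3 populations for these 4 genes. The member called higher was Fbln2, a fibulin of basement membranes, with 9.61, 8.53 and 8.93 in CD29hiCD24+ arrays, against 6.76, 6.72 and 6.50 in Lin- arrays (2.37 ± 0.49).

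Further lists of other cell types held 3 to 6 measured members each, too few to set their counts apart from the shares of all genes (17.0% higher and 23.2% lower). Of 6 lymphatic endothelial markers 3 were higher and 0 lower. Reln (4.06 ± 0.95), Lyve1 (3.82 ± 0.80) and podoplanin, Pdpn (2.13 ± 0.62), were these 3, and Lyve1 had 10.08, 6.63 and 4.88 in CD29hiCD24+ arrays, against 3.73, 3.74 and 2.68 in Lin- arrays. Without both arrays of pool F only 1 was called, with Reln and Pdpn lost (adjusted p = 0.0504 and 0.0796). Pdpn was not called without both arrays of pool H (adjusted p = 0.0521), nor Lyve1 with only the compared groups fitted (adjusted p = 0.0588). Pericyte markers had 1 of 6 higher, Mcam (3.66 ± 0.84), and 1 lower, Notch3, while Rgs5, at 8.01, 6.84 and 7.43 in CD29hiCD24+ arrays and 3.76, 7.28 and 5.79 in Lin- arrays, was not called (1.82 ± 1.24). Adipocyte markers had 1 of 4 higher (Pparg, 2.03 ± 0.60) and 1 lower (Lipe, -2.06 ± 0.27), with Fabp4 strong in every array and not called (1.22 ± 1.38), and Adipoq was not analysed here. Of 6 Schwann and glial markers 1 was higher (Sox10) and 1 lower (Erbb3; 2 lower with the block), both of which epithelial lists also hold. None of 5 skeletal muscle markers and none of 3 erythroid and platelet markers was called by limma, with or without the block, and none had an unadjusted p under 0.05. Their list means were 2.96, 3.17 and 2.81 in CD29hiCD24+ arrays and 2.90, 2.98 and 2.93 in Lin- arrays for skeletal muscle, and 6.57, 4.23 and 3.78 in CD29hiCD24+ arrays and 4.60, 3.54 and 4.09 in Lin- arrays for erythroid and platelet genes.

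Of 20 measured proliferation genes 3 were higher and 3 lower, with a median of 0.16, shares no larger than those of all genes (17.0% and 23.2%). Without the CD29hiCD24+ array of pool F 1 member was called higher, and without the Lin- array of pool G 5 were. Pcna, the replication clamp, had 13.19, 12.82 and 12.96 in CD29hiCD24+ arrays, against 11.52, 11.46 and 11.76 in Lin- arrays (1.41 ± 0.24, adjusted p = 7.88e-05). Aurka, a mitotic kinase gene, had 2.96, 2.60 and 3.69 in CD29hiCD24+ arrays, against 5.62, 4.68 and 6.51 in Lin- arrays (-2.52 ± 0.60, adjusted p = 0.00223). Rrm2, a ribonucleotide reductase subunit (1.55 ± 0.50), and the replication helicase gene Mcm2 (-1.35 ± 0.42) were not called without the CD29hiCD24+ array of pool F (adjusted p = 0.0759 and 0.103) or the Lin- array of pool H (adjusted p = 0.142 and 0.0859), and Rrm2 was not called without the CD29hiCD24+ array of pool H either (adjusted p = 0.0626). Of other replication helicase subunits, Mcm3 was higher by 0.98 ± 0.32 (not called without the CD29hiCD24+ array of pool F, adjusted p = 0.0582) and Mcm6 was lower by -1.08 ± 0.30. Top2a was not called (1.07 ± 0.56), except without the Lin- array of pool G (1.63, adjusted p = 0.0294).

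The gate difference of the glands was set against the same difference in the 5 tumours, which shares no array with it. In the tumours 1128 of 13485 genes (8.36%) were called, 504 (3.74%) higher and 624 (4.63%) lower in CD29hiCD24+ cells (792 and 494 with quantile normalisation), or 2531 in all with tumour or pool as a block, 465 with only the compared groups fitted and 743 without the CD29hiCD24+ array of tumour E. Genes called in both with the same sign numbered 287, which is 5.30% of the calls in glands and 25.4% of the calls in tumours, and 187 were called with opposite signs. The difference between the normal and the tumour gate difference was itself called for 4817 genes (35.7%), 2137 (15.8%) higher and 2680 (19.9%) lower in glands. Basal genes show the contrast by list. In glands 10 of 12 basal members were higher, in tumours 1 of 12 was higher with a median of 0.20, and 8 members were called higher in the difference between them. Of 24 luminal members 16 were lower in glands and 2 in tumours, both of these among the 16, and in the difference 8 members were lower and 1 higher. Endothelial genes had 9 higher in glands and in tumours 0 higher and 1 lower, with a median of -1.08, and 12 of 16 were called in the difference. Of 22 fibroblast genes 9 were lower in glands and 14 in tumours, 7 of them in both, with a tumour median of -2.67, and 3 were called in the difference. Proliferation genes had 3 higher in glands and 16 of 20 higher in tumours, and 7 were lower and 1 higher in the difference.

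**Figure D5:**
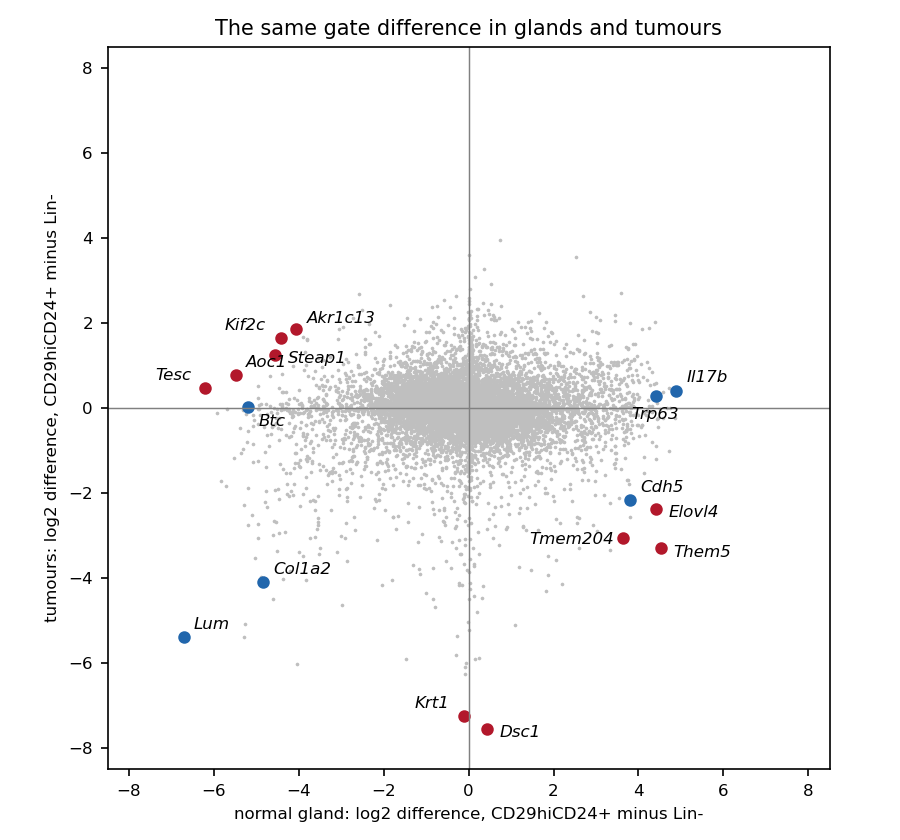
Log2 difference of CD29hiCD24+ minus Lin- in normal glands (horizontal axis, 3 pools) and in tumours (vertical axis, 5 tumours), with a grey point per gene, the 10 genes with the largest called differences between them in red and 6 genes of the text in blue. Lum and Col1a2 are low in both, Il17b, Trp63 and Btc were called in glands and not in tumours, and Them5, Elovl4 and Tmem204 are high in glands and low in tumours.

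By rule, the 5 highest and 5 lowest called differences between glands and tumours were named. Them5, a thioesterase gene, was higher in the gate of glands by 4.53 ± 0.62 and lower in the gate of tumours by -3.30 ± 0.48, a difference of 7.84 ± 0.79 (adjusted p = 4.61e-07). Elovl4, which elongates very long fatty acids, behaved alike, with 4.40 ± 0.66 in glands and -2.37 ± 0.51 in tumours (6.77 ± 0.84), and so did Tmem204, with 3.65 ± 0.88 in glands and -3.05 ± 0.68 in tumours (6.70 ± 1.12); the gland value of Tmem204 was not called without both arrays of pool F (2.17, adjusted p = 0.108). Dsc1, a desmosomal cadherin of cornifying epithelium, and Krt1, a keratin of the upper epidermis, stood out for the tumours. Dsc1 was not called in glands (0.43 ± 1.12), where it lay between 2.74 and 3.90 in all 6 arrays, and was lower by -7.55 ± 0.87 in tumours (difference 7.98 ± 1.42). Krt1 was at -0.10 ± 1.70 in glands and -7.26 ± 1.32 in tumours (difference 7.16 ± 2.15, adjusted p = 0.0132). The means of Krt1 in both gland populations (2.03 and 2.13) and in the CD29hiCD24+ cells of tumours (2.79) lay in the low band, so the sizes of its differences are uncertain. The same holds for Dsc1, whose mean in gland Lin- arrays (2.78) lay in the low band. Its mean in the CD29hiCD24+ cells of tumours (2.91) lay just above that band. Tesc was lower in the gate of glands (-6.19 ± 1.22) and not called in tumours (0.46 ± 0.94), a difference between them of -6.65 ± 1.54. Its mean in tumour Lin- arrays (2.59) lay in the low band, so the size of that difference is uncertain. Aoc1 was likewise lower in glands (-5.48 ± 0.96) and not called in tumours (0.78 ± 0.75; difference -6.26 ± 1.22). Kif2c, a mitotic kinesin gene, was lower by -4.42 ± 0.48 in glands and higher by 1.65 ± 0.37 in tumours (difference -6.07 ± 0.61); its other kept probe set lay in the low band in both gland populations, with a difference of -0.58. Akr1c13 was lower in glands (-4.06 ± 0.65) and higher in tumours (1.85 ± 0.51), and Steap1 was lower in glands (-4.55 ± 0.51) and not called in tumours (1.25 ± 0.39, adjusted p = 0.0538). Other called genes with opposite signs in glands and tumours were Cdh5, at 3.79 ± 0.75 in glands and -2.16 in tumours, and Wnt4, at -3.90 ± 0.56 in glands and 1.67 in tumours.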

How the data were processed

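The values are log2 signals per probe set as deposited by the authors; per the submitters' processing notes RMA, GCRMA and Partek were used, with no role, order or version named. RNA went through a micro extraction kit and 2-cycle labelling, per the labels' protocols. Of 45101 probe sets 34945 had 1 gene name, 932 several, 9160 none and 64 were controls, and 34741 of those with 1 name matched a reference identifier. A probe set was kept (24278 were) if 3 or more arrays exceeded 2.83, below which 40% of the values lie, and the brightest stood for its gene, which gave 13485 genes of 18193. limma 3.58.1 in R 4.3.3 fitted a mean to each of the 6 groups over 24 arrays, with eBayes and a variance trend; p was adjusted by Benjamini-Hochberg over all genes. The fit was tested on simulated data. Arrays of 1 pool or tumour share its letter, so they are paired by the labels; deviations of CD29hiCD24+ and Lin- arrays from their group means correlated at 0.082 (F), 0.015 (G) and 0.18 (H). Named genes are the 15 highest and 15 lowest, 4 called members per list with the largest difference, defining markers, and the 5 highest and 5 lowest differences from tumours; further list members were named after their values were seen. Comparison, members and gene lists were chosen with earlier results of these data known. The alternatives were other scaling, filtering, probe summary, covariates, blocks and left-out arrays. Slides, scans and scanner files were not used here. Precision is limited by how few arrays there are.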

Additional observations from a re-analysis of the deposited data

Results flagged for a closer look

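The gate difference of normal glands differed from that of tumours, by a test of the difference itself, for the 10 genes named above. It was 7.98 for Dsc1, 7.84 for Them5, 7.16 for Krt1, 6.77 for Elovl4 and 6.70 for Tmem204, and -6.65 for Tesc, -6.26 for Aoc1, -6.07 for Kif2c, -5.91 for Akr1c13 and -5.79 for Steap1 (log2, glands minus tumours), and each was called under all the alternatives run for it.

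For these 10 genes the 20 tumour groups of 5 arrays were searched for a single array far from the others, and 3 were found; chance gives about 1 in 20. Krt1 lay at 5.68 in the CD29hiCD24+ array of tumour E, against 2.01 to 2.11 in the other 4. Tesc lay at 7.33 in the CD29hiCD24+ array and at 4.99 in the Lin- array of tumour C, and at 1.94 to 2.04 in the CD29hiCD24+ and 1.94 to 2.03 in the Lin- arrays of the others. The brighter Tesc probe set carries these values; the other kept one differed by -0.93 in glands.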

How the results depend on the processing

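With 19 alternatives, 3 of them (leaving out both compared arrays of pool F, G or H) chosen after seeing the data, none of the 173 called genes with values above changed sign and 122 kept their call throughout. The gland comparison gave 6573 calls with the replicate block, which pairs arrays of a pool and changed no call of a named gene beyond the 7 given above, and 4485 to 5191 when 1 array was left out; of the planned and added alternatives only leaving out both arrays of pool F moved the count past 1.5-fold (3573). The tumour count of 1128 moved to 2531 with the replicate block, 465 with only the groups compared, 1952 with the description-number block, and 743 (without the CD29hiCD24+ array of tumour E) to 1317 when 1 array was left out; quantile normalisation turned its split to 792 higher against 494 lower. The difference between glands and tumours gave 6217 calls with the block and 4047 to 4839 with 1 array left out. In the gland comparison with only the compared groups fitted, 4609 genes were called and 17 of the 173 lost their call. Uncalled genes that were called there included Krt8, Krt18, Vim, Fabp4, Csn3, Lcn2, Esr1, Tagln, Vcam1 and Postn. Uncalled Lyz2 changed sign with the actin covariate (-0.52), array weights (-1.37), without the CD29hiCD24+ array of pool F (-2.31) or the Lin- array of pool G (-0.76) in a leave-one-out range up to 1.70, and without both arrays of pool F (-1.13), and uncalled Ptprc did so without pool H (0.37); the cause was not tested. Background correction could not be varied, since scanner files were not used here.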

Other observations

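Genes of the immediate early response, which tissue dissociation induces, were strong in all 6 arrays, with list means of 12.67, 12.38 and 12.51 in CD29hiCD24+ arrays and 12.55, 12.32 and 12.82 in Lin- arrays (pools F, G and H). Of 18 measured members 5 were higher and 5 lower, against 17.0% and 23.2% of all genes. These counts rest on single arrays: 2 were higher when the CD29hiCD24+ or the Lin- array of pool F was left out and 3 without the Lin- array of pool G, and 1 was lower without the CD29hiCD24+ array of pool G, 2 without the Lin- array of pool H and 3 without the Lin- array of pool F. Dusp1, a phosphatase of MAP kinases, was higher by 1.01 ± 0.21, Nr4a1 by 1.39 ± 0.43 and Btg2 was lower by -1.44 ± 0.46, the last not called without the CD29hiCD24+ array of pool G (adjusted p = 0.0677) or the Lin- array of pool H (adjusted p = 0.0673). Fos lay above 14 in each array and was not called (-0.18 ± 0.14). Of 17 hypoxia and glycolysis genes 4 were higher and 3 lower, near the shares of all genes (17.0% and 23.2%). Egln3 was at 1.67 ± 0.50, Ankrd37 at 1.21 ± 0.48, the hexokinase gene Hk2 at -1.05 ± 0.20 and Pdk1 at -1.45 ± 0.21. Of 4 Pdk1 probe sets 1 was higher (1.10), and 2 members were higher without the CD29hiCD24+ array of pool F or G or the Lin- array of pool H. Egln3 was not called without the CD29hiCD24+ array of pool F (adjusted p = 0.0531) or the Lin- array of pool H (adjusted p = 0.0922), and Ankrd37 was not called when any of 4 arrays was left out, with adjusted p up to 0.235 without the Lin- array of pool H. Of 11 interferon genes 1 was higher (Ifit2, 1.99 ± 0.60) and 1 lower (Usp18, -2.95 ± 0.99), or 2 and 2 with pool or tumour as a block, both with calls lost when any of 3 arrays was left out, with adjusted p up to 0.0904 for Ifit2 without the CD29hiCD24+ array of pool F and 0.0787 for Usp18 without that of pool H.

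Glycam1, a mucin of milk and of lymph node vessels, had 12.47, 11.06 and 13.001 in CD29hiCD24+ arrays and 9.88, 2.78 and 13.45 in Lin- arrays, against 2.45, 2.498 and 2.53 in CD29+CD24+ arrays. Between CD29hiCD24+ and Lin- cells it was not called (3.47 ± 2.45, adjusted p = 0.291). Lcn2 (0.71 ± 1.08), Ltf (-3.06 ± 1.999) and Csn3 (-2.03 ± 2.52) were not called either. Lcn2 and Csn3 were called with only the compared groups fitted (adjusted p = 0.0195 and 0.0329).

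Col6a3 parted from the other collagen genes in the intermediate gate. It lay at 11.54, 10.17 and 9.65 in CD29+CD24+ arrays, close to the Lin- arrays (11.96, 9.75 and 10.33) and above the CD29hiCD24+ arrays (5.87, 5.13 and 7.21), whereas Col1a2 averaged 2.66 in CD29+CD24+ arrays.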
